A study of Mus musculus with 12 samples.

Results

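Promoter-proximal peaks of DNA methylation (5mC) and of its oxidised form hydroxymethylation (5hmC) were examined in the embryonic mouse cortex. They are the peaks whose midpoint lay within 2000 bp of the transcription start site (TSS) of the nearest gene, on either side, by the distance given with each peak. This selected 3380 of 55085 peaks of 5mC (6.14%) and 3147 of 47478 peaks of 5hmC (6.63%), or 6527 of 102563 in all. The 5mC peaks were assigned to 2958 genes and the 5hmC peaks to 2840 genes, and 751 genes had peaks of both marks. The rule used position only, and no level of either mark. The peaks were short, with a median width of 147 bp for 5mC and 167 bp for 5hmC, against 144 and 164 bp over all peaks. Just inside the limit, the 895 peaks of 5mC between 1500 and 2000 bp had median levels of 5.08 in PP and 4.89 in N, and the 939 peaks between 2000 and 2500 bp had 5.10 and 4.90. For 5hmC the medians were 4.68 and 4.76 inside and 4.69 and 4.73 outside.

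The cells came from E14.5 cortices of embryos double heterozygous for Btg2RFP and Tubb3GFP, so that all groups carried both reporters. Sorting by fluorescence gave proliferating progenitors (PP, Btg2-/Tubb3-), differentiating progenitors (DP, Btg2+/Tubb3-) and neurons (N, Tubb3+ irrespective of RFP), which follow each other in the neurogenic lineage. No treatment was applied. DNA of the 3 cell types was barcoded and mixed before immunoprecipitation with an antibody to 5mC or 5hmC, and DNA without antibody served as input. There were 6 immunoprecipitated and 6 input samples in the labels. A level is the log2 of the mean normalized read count of a peak in a cell type, and 1 value per cell type was available, so that no spread between replicates could be given and nothing was tested. The median levels of the proximal peaks corresponded to 33.9, 33.7 and 30.2 normalized reads for 5mC and to 26.7, 26.9 and 27.5 for 5hmC in PP, DP and N.

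5mC at a promoter is known for its association with silent genes, and CpG-rich promoters are mostly kept free of it. CpG-poor promoters, germline genes, imprinted genes and genes on the inactive X chromosome are the usual exceptions. 5hmC is made from 5mC by Tet enzymes, can be an intermediate on the way to the unmodified base, and is abundant in neural tissue. Gene expression was given with each peak as a mean per cell type from an earlier RNA sequencing study of the same cell types, in a unit that is not named and is called a score here. The expression scores followed the sorting, which for Btg2 and Tubb3 results in part from the use of their reporters. Being from the earlier study, the scores do not show the purity of the cells used here. Each of the 5 PP markers (Pax6, Sox2, Hes1, Hes5 and Vim) was highest in PP, each of the 4 DP markers (Btg2, Eomes, Neurog2 and Insm1) in DP, and each of the 5 neuronal markers listed (Tubb3, Dcx, Neurod2, Neurod6 and Tbr1) in N. Of 24 markers of other cell types, 16 were listed, of which 9 were highest in PP, 3 in DP and 4 in N, with summed scores of 4304, 5595 and 10617. The sum in N was made up mostly of the interneuron genes Dlx1, Dlx2 and Gad1 (3961, 2227 and 3055), whereas the microglial gene Cx3cr1 scored 62.3, 41.8 and 7.50 and the endothelial gene Cldn5 78.4, 15.7 and 4.90 in PP, DP and N. Other markers that were highest in PP had larger scores there. Among them were Pdgfrb (843, 289 and 25.7), Rgs5 (472, 41.5 and 60.3), Col1a1 (463, 50.6 and 28.2) and Csf1r (247, 147 and 67.4).

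To show what such sites look like, the sequences given here are bases before the start of a RefSeq transcript, from windows of GRCm38.p6, which has the coordinates of mm10, with each CpG in capitals. This start can differ from the TSS behind the distances, as at Rph3a, whose peak was listed at -681 bp. They were chosen after their values had been seen, because the peak falls within a window or because the gene is a reporter gene. The 5mC peak of Rph3a, a synaptic vesicle protein (chr5:121010141-121010257, minus strand), and both peaks of Clnk, an immune cell adaptor (5mC at chr5:38876711-38876872 and 5hmC at chr5:38876828-38876943 within the window, minus strand), stand for promoters at which 5mC was lower in neurons. The number of CpG in their windows was near the median of all windows. The 5hmC peak of Eef1a2, a translation elongation factor (chr2:181157050-181157232, minus strand), is a promoter of a gene with high expression only in N among the 3 cell types. The 5mC peaks of Mcts2, an imprinted gene (chr2:152686970-152687147, plus strand), and Hdac6, an X-linked deacetylase (chrX:7947890-7948076, minus strand), stand for CpG-rich promoters with 5mC. Btg2 (chr1:134079156-134079405, minus strand) and Tubb3 (chr8:123411303-123411552, plus strand) are the promoters of the genes whose reporters were used for sorting.
Rph3a 5mC: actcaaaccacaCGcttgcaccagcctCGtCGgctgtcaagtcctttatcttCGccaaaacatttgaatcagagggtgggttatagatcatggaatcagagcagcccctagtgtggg
Clnk 5mC: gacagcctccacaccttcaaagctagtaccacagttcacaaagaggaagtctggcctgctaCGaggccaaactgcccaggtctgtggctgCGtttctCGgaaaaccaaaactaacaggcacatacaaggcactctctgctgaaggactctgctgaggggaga
Clnk 5hmC: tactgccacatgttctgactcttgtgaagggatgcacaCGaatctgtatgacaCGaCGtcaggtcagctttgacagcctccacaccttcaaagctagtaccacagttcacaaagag
Eef1a2 5hmC: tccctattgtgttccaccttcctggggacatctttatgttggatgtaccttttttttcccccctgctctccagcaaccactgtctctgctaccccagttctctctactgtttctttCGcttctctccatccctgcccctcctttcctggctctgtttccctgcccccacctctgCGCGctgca
Mcts2 5mC: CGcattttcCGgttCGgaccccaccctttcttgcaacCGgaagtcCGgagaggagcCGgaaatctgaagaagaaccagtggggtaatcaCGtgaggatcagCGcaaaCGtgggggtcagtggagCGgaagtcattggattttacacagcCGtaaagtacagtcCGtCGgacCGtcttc
Hdac6 5mC: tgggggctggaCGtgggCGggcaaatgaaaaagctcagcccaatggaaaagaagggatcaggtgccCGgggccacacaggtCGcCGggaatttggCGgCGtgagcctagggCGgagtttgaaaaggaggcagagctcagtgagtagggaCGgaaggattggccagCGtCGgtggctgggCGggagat
Btg2 promoter: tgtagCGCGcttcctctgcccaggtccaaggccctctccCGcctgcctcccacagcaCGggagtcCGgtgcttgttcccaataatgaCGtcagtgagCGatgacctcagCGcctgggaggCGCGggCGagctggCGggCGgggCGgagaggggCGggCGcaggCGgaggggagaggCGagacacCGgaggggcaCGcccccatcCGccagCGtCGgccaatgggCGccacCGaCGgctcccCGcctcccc
Tubb3 promoter: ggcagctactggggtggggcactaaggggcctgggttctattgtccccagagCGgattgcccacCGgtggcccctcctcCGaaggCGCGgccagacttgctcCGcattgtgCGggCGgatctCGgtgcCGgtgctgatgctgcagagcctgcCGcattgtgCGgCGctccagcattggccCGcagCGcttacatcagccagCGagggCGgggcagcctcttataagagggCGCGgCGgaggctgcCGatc
The Rph3a stretch held 4 CpG in 117 bases, the 5mC and 5hmC stretches of Clnk 3 in 162 and 3 in 116, and the Eef1a2 stretch 3 in 183. By contrast, Mcts2 had 14 in 178 and Hdac6 12 in 187. The full 250 bases held 27 at Btg2, 21 at Tubb3, 20 at Mcts2 and 17 at Hdac6. Rph3a, Clnk and Eef1a2 had 5, 6 and 4 in the full 250 bases, against a median of 6 over 32851 promoter windows. The 45 bases shared by the Clnk peaks of both marks are the end of the 5hmC stretch and the start of the 5mC stretch. A CpG class could not be given for all members, since only 54.0% of the 5mC and 65.1% of the 5hmC members could be matched to a promoter window by symbol. Of the members, 67 of 5mC and 102 of 5hmC covered 60 or more of the 250 bases before a TSS of their own gene.

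Peaks were unevenly placed around the TSS, and differently so for different kinds of gene. At genes other than predicted genes and pseudogenes, there were 64.8 5mC peaks per 100 bp between 1500 and 2000 bp upstream and 88.4 at the same distance downstream, but 32.8 between 250 and 500 bp upstream and 35.2 in the next 250 bp. The density was higher again, at 69.2, in the 250 bp after the TSS. The density of 5hmC peaks at these genes was lowest in the 250 bp after the TSS (42 per 100 bp) and highest from 1000 to 1500 bp downstream (83.4). At predicted genes and pseudogenes the order was opposite for 5mC, with 89.2 peaks per 100 bp in the 250 bp after the TSS and 14.8 between 1500 and 2000 bp downstream. These genes accounted for 28.1% of the proximal 5mC peaks and 13.1% of the farther ones. For 5hmC the share was 15.9% in both. Pseudogenes of ribosomal proteins are an example. The ribosomal protein list had 48 proximal 5mC peaks at 45 symbols and 15 of 5hmC at 13, and 10 of the 48 lay within 100 bp of the TSS. The same share over all proximal peaks was not computed. The list was made by symbol and does not hold pseudogenes only. It also has peaks of ribosomal protein genes themselves, such as Rpl13, Rps24, Rpl28 and Rpl10 (at -42 bp), and of the kinase-like gene Rps6kl1. Examples next to a TSS are Rps27a-ps2 (6.44, 6.43 and 6.41 in PP, DP and N, at -3 bp) and Rps18-ps1 (4.84, 4.96 and 5.14, at +16 bp). The levels at such near-identical copies are uncertain, since reads can be split among them.

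**Figure D1:**
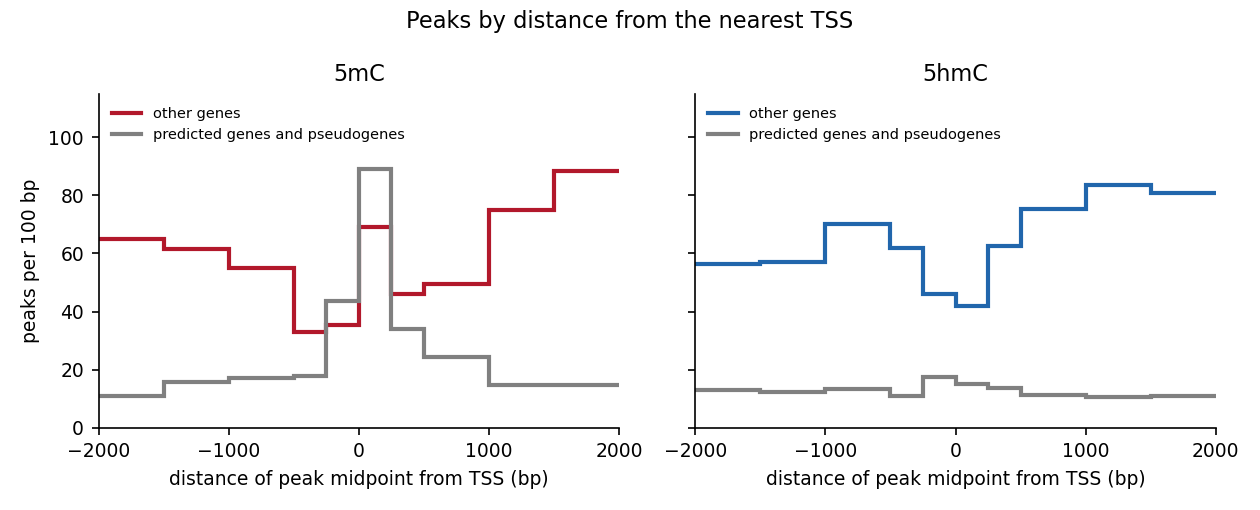
Number of promoter-proximal peaks per 100 bp (y axis) by signed distance of the peak midpoint from the TSS in bp (x axis, negative upstream), for 5mC (left) and 5hmC (right), with predicted genes and pseudogenes in grey and other genes in colour. 5mC peaks of predicted genes and pseudogenes are densest in the 250 bp after the TSS (89.2 per 100 bp), whereas 5hmC peaks of other genes are sparsest there (42 per 100 bp).

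Levels of promoter-proximal peaks were close to those of all peaks. Proximal 5mC had medians of 5.08, 5.07 and 4.92 in PP, DP and N, against 5.06, 5.05 and 4.87 over all 5mC peaks. The median 5hmC level was 4.74, 4.75 and 4.78, against 4.72, 4.71 and 4.75. Near the TSS 5mC was somewhat stronger, with medians of 5.2, 5.19 and 5.06 over the 921 peaks within 500 bp and 5.29, 5.28 and 5.19 over the 257 peaks that overlapped the gene start. At predicted genes and pseudogenes the median was 5.23 in PP, against 5.02 at other genes. The strongest 5mC signals were far above the rest and differed little between cell types. They belonged to Gm11400 (12.11, 12.10 and 12.21 in PP, DP and N), 3110070M22Rik (10.85, 10.77 and 10.72), Gm15726 (9.41, 9.24 and 9.36), Snord37 (9.13, 9.16 and 9.09), Btg2 and Gpr65 (8.46, 8.39 and 8.32). Btg2, an antiproliferative gene that marks neurogenic divisions, had 5mC levels of 8.61, 8.13 and 8.22 at +254 bp, just inside a gene whose expression score was 19335, 38556 and 7484. The highest 5hmC levels were lower, between 7.40 and 8.17, at Gm11399, Gm11400, Tas1r2, Spink2, 3110070M22Rik and Atp2b3. Gm11400 and 3110070M22Rik were thus among the highest of both marks. The levels were not compared with input here, and whether repeated copies of a sequence add to them was not tested. They therefore do not rank promoters by their methylation. Whether sequence of the reporter construct adds to the peaks of Btg2 or Tubb3 was not tested.

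Changes were compared after the median difference over all peaks of a mark had been subtracted. For 5mC this difference was -0.0040 from PP to DP, -0.18 from DP to N and -0.17 from PP to N, and for 5hmC -0.0035, -0.02 and -0.08. A peak was counted as higher or lower where its level differed by 1.5-fold or more, or 0.585 on the log2 scale. From PP to DP, 5mC was lower at 166 proximal peaks (4.91%) and higher at 142 (4.2%), whereas 5.44% and 4.6% of all 5mC peaks were lower and higher. From DP to N, 278 were lower (8.22%) and 179 higher (5.30%), against 9.36% and 5.12% of all peaks. Over the whole course from PP to N, 319 were lower (9.44%) and 178 higher (5.27%), against 10.2% and 5%. The shares near the TSS were close to those of the background, with slightly fewer losses in each step and slightly more gains from DP to N and from PP to N. The balance depends on the subtraction, since without it 86.4% of the calls from DP to N were lower (471 lower and 74 higher) in place of 60.8%, and 87.0% from PP to N in place of 64.2%. Peaks with a level at or above the median of all peaks in the higher cell type gave smaller shares. Over the 3 steps, in the order above, 1.85%, 4.21% and 4.79% of such proximal 5mC peaks were lower, against 2.28%, 5.37% and 6.75% of all such peaks, and 1.68%, 2.66% and 2.95% were higher, against 2.16%, 2.43% and 2.79%.

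The gains and losses of 5mC at single promoters were of different size. Among peaks at or above the median level in the higher cell type and above the lowest level of the table in both, the largest loss from DP to N was at Rph3a, a Rab3 effector of synaptic vesicles, whose peak at -681 bp had 5.63 in PP, 5.66 in DP and 2.58 in N, while its expression score was 12.9, 14.6 and 2340. PP and DP were alike and N stood apart, with a centred change of -2.91 on the log2 scale. Apobec2, a member of the APOBEC deaminase family, was at 6.12, 5.67 and 3.52 (change -1.97), Psg16, a pregnancy-specific glycoprotein, at 6.48, 6.11 and 4.06 (-1.87), and Vstm2l at 8.22, 7.67 and 5.71 (-1.78). All of these were chosen for their difference between DP and N. Dll3, a divergent ligand of the Notch pathway, was different in shape, as its peak at +1868 bp had 4.50 in PP, 5.32 in DP and 3.32 in N. Under the same limits on level, it was both among the 5 largest gains from PP to DP (+0.82) and among the 5 largest losses from DP to N (-1.83). Gains of 5mC from DP to N were smaller, the 5 largest being between +0.97 and +1.11. The 5 included Ndrg4 (5.31, 4.89 and 5.72), a gene of neuronal differentiation whose expression score was 530, 819 and 6805. The TGF-beta receptor gene Tgfbr2 (5.34, 4.30 and 5.23) was another. Tgfbr2 was at the same time among the largest losses from PP to DP under the limits (-1.04), so that only its DP value was low. Among the members, 4 values of 5mC in N and 0 in PP or DP were at the lowest level of the table. Among them was Syt3, a synaptotagmin, with 6.32, 5.70 and 0.11 at -1456 bp. Since 0.11 is that lowest level, no fold is given, but its difference is larger than that of Rph3a. For 5hmC, 4 values in PP and 2 in DP were at the lowest level of the table among the members.

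For 5hmC, gains outnumbered losses in each step, as they did over all peaks. From PP to DP, 290 proximal peaks were higher (9.22%) and 148 lower (4.7%), whereas 11.2% and 4.68% of all 5hmC peaks were higher and lower. From DP to N, 507 were higher (16.1%) and 227 lower (7.21%), against 16.5% and 7.07%. Between PP and N, 658 were higher (20.9%) and 240 lower (7.63%), against 22.1% and 7.71%. With levels at or above the median, the shares of proximal peaks that were higher were 4.13%, 16.9% and 22% over the 3 steps, against 5.46%, 17.7% and 23.2% of all such peaks, and the shares lower 2.71%, 4.58% and 5.43%, against 3.54%, 4.95% and 5.78%. Within the window the shares differed with distance. From DP to N, 13% of the 675 peaks within 500 bp were higher and 10.4% lower, whereas 19.4% of the 818 peaks between 1000 and 1500 bp were higher and 5.87% lower. Between 500 and 1000 bp the values were 14.3% and 7.99%, and between 1500 and 2000 bp 17.2% and 5.11%. From PP to N the shares of higher peaks were 17.2%, 18%, 24.1% and 23.9% in the same order of distance. Peaks downstream of the TSS were higher from PP to N more often than upstream ones, at 22.8% of 1695 and 18.7% of 1452. 5mC had the reverse order for losses, with 10.8% of 1451 upstream peaks and 8.45% of 1929 downstream peaks lower from PP to N.

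**Figure D2:**
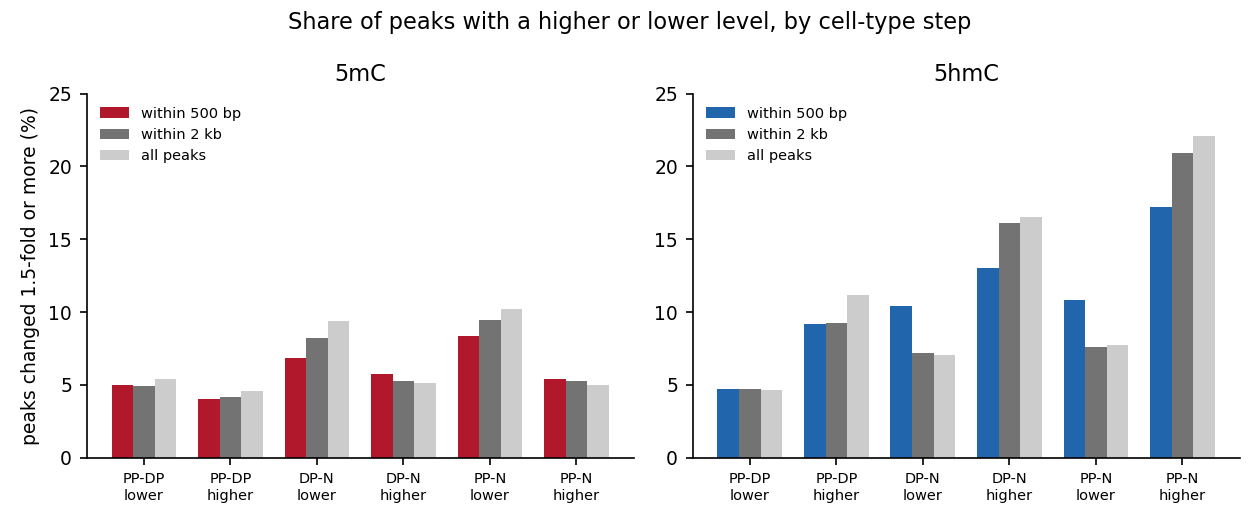
Share of peaks in percent (y axis) whose level was lower or higher by 1.5-fold or more in each step between cell types (x axis), for 5mC (left) and 5hmC (right), with peaks within 500 bp of a TSS in colour, within 2 kb in dark grey and all peaks in light grey. Within 500 bp, 13% of 5hmC peaks were higher and 10.4% lower from DP to N, compared with 16.5% and 7.07% of all peaks.

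Among 5hmC peaks at or above the median level, the largest gains from PP to DP included Psg16 (2.83, 5.70 and 6.95 in PP, DP and N), Gpr151 (3.52, 5.65 and 6.03), Gm19898 (2.92, 4.91 and 5.27) and Apobec2 (3.14, 4.94 and 6.23). These peaks were chosen for a high level in DP, and their level in N was higher still. Their expression score was at most 58.7 in any cell type. The 5 largest gains from DP to N lay between +2.71 and +3.66 and included Gtpbp6 (2.03, 2.27 and 5.18), a putative GTPase, and the transcription factor gene Mecom (1.49, 2.32 and 5.25). Losses were smaller. They included, from DP to N, both peaks of Nhlh1, a basic helix-loop-helix factor of young neurons, of which the peak at -833 bp had 4.45, 4.94 and 2.98 and the peak at +653 bp 4.86, 5.33 and 4.20. Its expression score was 328, 5329 and 5049, so that DP and N had nearly the same expression and different 5hmC. From PP to DP, 5hmC was lower at Sult1a1 (5.13, 3.84 and 3.67), Ucn2 (4.93, 4.03 and 5.03) and Fosl2 (5.24, 4.25 and 4.48), among others.

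At 414 sites a promoter-proximal peak of 5mC overlapped a promoter-proximal peak of 5hmC, by a median of 112 bp, and these sites belonged to 400 genes. Losses of 5mC and gains of 5hmC were more frequent there than at other members, and the opposite calls less frequent. From PP to N, 18% of the 422 proximal 5mC peaks that overlapped any 5hmC peak were lower, against 8.22% of the 2958 that did not and 10.2% of all 5mC peaks. Of the 423 5hmC peaks that overlapped a 5mC peak, 39.5% were higher from PP to N, against 18% of the 2724 others and 22.1% of all 5hmC peaks. By contrast, 4.03% of the overlapping 5mC peaks were higher, against 5.44% of the others, and 3.78% of the overlapping 5hmC peaks were lower, against 8.22%. The higher shares of losses of 5mC and gains of 5hmC were also found without predicted genes and pseudogenes (18.2% and 40.2%). At the 414 sites, 5mC was lower from PP to N at 75 and 5hmC higher at 162, and both applied to 64, which is 85.3% of the former and 39.5% of the latter. The opposite combination, 5mC higher and 5hmC lower, was seen at 2 sites. Across the sites the rank correlation of the changes was -0.52 from PP to N, -0.35 from DP to N and -0.10 from PP to DP. This is a description across sites, whose values share the same sorted populations. The peaks called in each cell type had been merged. A site could thus enter through a 5mC peak in 1 cell type and a 5hmC peak in another. Sites with opposite changes can be favoured by this, so the shares and correlations depend in part on how the sites were selected. How much they depend on it was not tested.

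The 64 sites with less 5mC and more 5hmC in neurons were also followed over the single steps. Their median 5mC level was 5.07, 4.93 and 3.84 in PP, DP and N, and their median 5hmC level 3.57, 4.30 and 5.28. From PP to DP, 5hmC was higher at 33 of them and 5mC lower at 12, and from DP to N at 51 and 43. The 5hmC level was below the 5mC level at 53 of the 64 in PP and at 8 in N, which follows in part from how they were chosen. Over all 414 sites it was 284 in PP and 191 in N. These levels come from separate immunoprecipitations, and their order at a site is not a ratio of the bases. Of the 64 genes, 16 were predicted genes or pseudogenes. In 32 the expression score reached 100 in PP or N, and it was 2-fold or more higher in N at 15 of these and lower at 4. Over all members with such a score, expression was higher in N at 340 and lower at 350 of 1900 5mC peaks, and higher at 564 and lower at 369 of 2062 5hmC peaks.

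**Figure D3:**
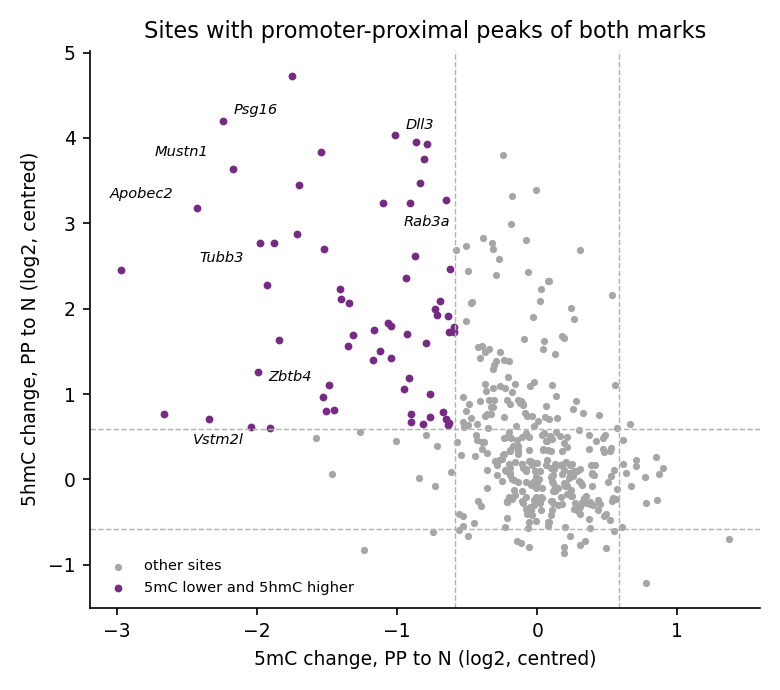
Change from PP to N on the log2 scale, minus the median change of all peaks, of 5mC (x axis) and 5hmC (y axis) at the 414 sites with overlapping promoter-proximal peaks of both marks, with dashed lines at 1.5-fold. The 64 sites with lower 5mC and higher 5hmC are purple and fill the upper left, whereas 2 sites show the opposite.

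Tubb3, the neuronal tubulin gene whose reporter defined N, was among these sites. Its 5mC peak at -883 bp (chr8:123410483-123410602) had 6.52 in PP, 6.03 in DP and 4.36 in N, and its 5hmC peak at -907 bp had 3.03, 3.30 and 5.72. PP and DP were similar in both marks and N differed, while the expression score was already higher in DP, at 3814, 25259 and 105657. The 21 CpG shown above lie closer to the TSS than either peak. Rab3a, a GTPase of synaptic vesicles, had 5mC levels of 6.81, 6.68 and 5.73 at +1223 bp and 5hmC levels of 3.04, 3.58 and 6.20, with expression scores of 430, 1457 and 9416. Zbtb4, which encodes a zinc finger protein that binds methylated DNA, had 4.85, 4.38 and 3.19 for 5mC at -393 bp and 5.07, 5.33 and 6.09 for 5hmC. Its expression score was 1019, 799 and 1543. Other neuronal genes among the 64 were Cux2, a factor of upper-layer neurons, the glutamate receptor gene Grik5, the calcium channel genes Cacna1h and Cacna2d2, and Lrrtm2. Cux2 had 5mC levels of 4.67, 4.42 and 2.65 and 5hmC levels of 3.58, 4.32 and 5.13, with expression scores of 1808, 5178 and 13213.

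The 8 sites with the largest combined difference were Gm14025, Psg16, Mustn1, Apobec2, a U1 small nuclear RNA copy on chromosome 7, Mecom, CT030639.1 and Dll3. The 5hmC level of Gm14025 in PP was the lowest of the table (-0.05), so that its difference is a lower limit. In 7 of the 8 sites expression was low in all cell types, with scores of at most 62.3, and Dll3 was the exception with 281, 1689 and 901. Its 5hmC peak had 0.99 in PP, 2.66 in DP and 4.93 in N, so that 5hmC was higher in each step, whereas its 5mC was highest in DP. Mustn1, a gene known from muscle, had 5.24, 4.32 and 2.90 for 5mC at +140 bp and 1.31, 3.96 and 4.86 for 5hmC. Vstm2l kept a high 5hmC level throughout (7.07, 7.47 and 7.69) while its 5mC was 8.22, 7.67 and 5.71, and its expression score was 1.20, 5.80 and 282. Btbd17, outside the 8 and named after its values had been seen, had a large difference in 5mC between PP and DP, with 5mC levels of 4.15, 2.21 and 2.10 and 5hmC levels of 2.79, 4.44 and 5.48, and expression scores of 995, 3197 and 391.

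**Figure D4:**
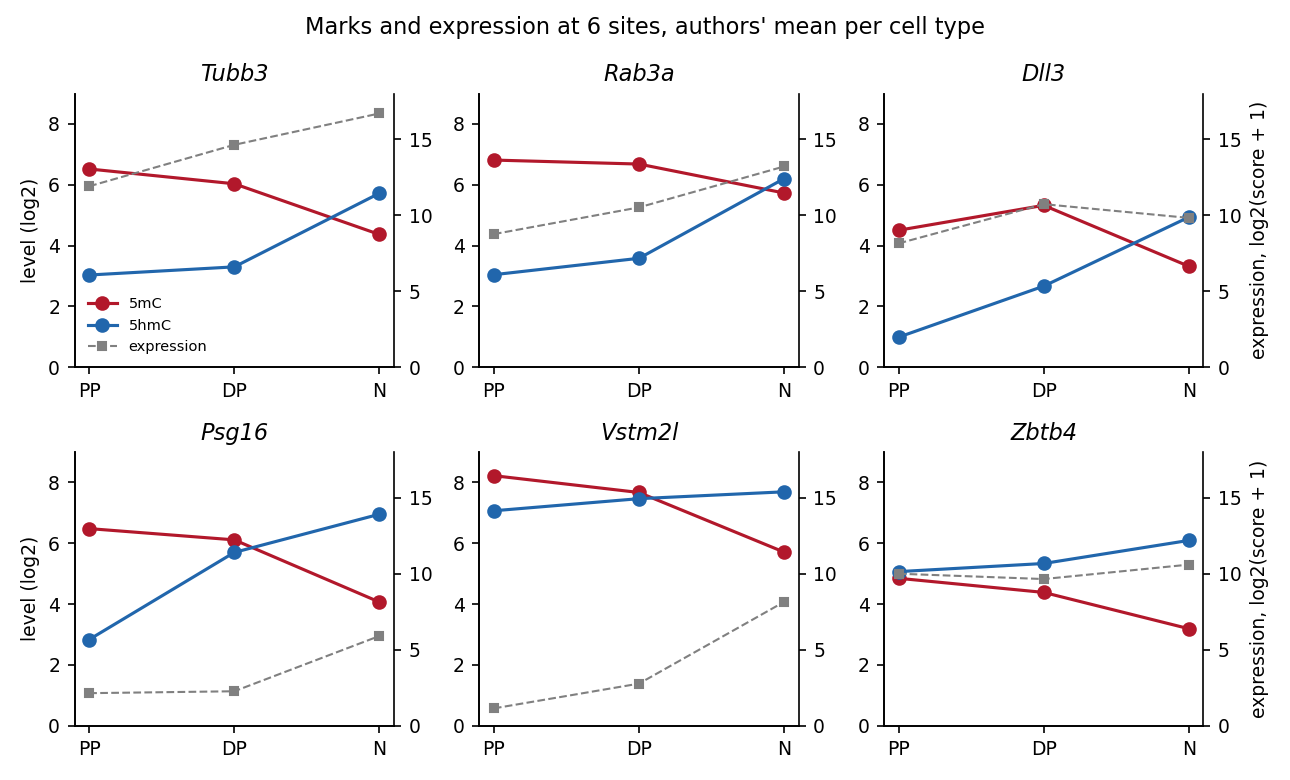
Levels of 5mC (red) and 5hmC (blue) on the log2 scale (left axes) and expression of the gene as log2(score + 1) (grey, right axes) in PP, DP and N at 6 sites with overlapping peaks, each point being the authors' mean of a cell type, so that no error bar can be drawn. 5mC is lowest and 5hmC highest in N at each of the 6, which follows in part from that choice. The cell type with the highest expression is DP at Dll3 and N at the others.

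Genes of cell identity were looked up among the promoter-proximal peaks. None of the 15 PP identity genes had a member of either mark. Hox genes had none either, but they had no peak at any distance in the tables. Of 14 DP identity genes, 2 had 5mC and 6 had 5hmC members, and of 20 neuronal identity genes 1 and 6. Counting those with a 5hmC peak at any distance, it was 0 of 13 PP, 6 of 11 DP and 6 of 15 neuronal genes, compared with 2840 of 12848 genes in all. For 5mC it was 0 of 11 PP, 2 of 11 DP and 1 of 17 neuronal genes, compared with 2958 of 14361. At the DP genes 4 of 10 5hmC peaks were higher and 1 lower from PP to N, where 22.1% and 7.71% of all 5hmC peaks were. The higher ones were 2 peaks of Btg2 (6.10, 6.09 and 6.74 at +862 bp, and 5.41, 5.59 and 6.31 at -1552 bp), the Dll3 peak described above and a peak of Rgs16 (3.35, 3.22 and 4.49), a regulator of G-protein signalling. The lower was Mfng, which encodes a glycosyltransferase of Notch receptors, with 4.87, 4.68 and 3.96. At the neuronal genes 3 of 6 5hmC peaks were higher and none lower, beside the same shares of all peaks. The higher ones were Tubb3, the transcription factor gene Neurod6 (5.71, 5.98 and 6.60) and Rbfox3, which encodes the neuronal antigen NeuN (4.46, 4.59 and 5.22). Stmn2 (4.12, 4.40 and 4.01) and Syp (6.44, 6.28 and 5.96) were within 1.5-fold from PP to N. The expression score of Stmn2 was 124, 369 and 21956. These lists and the following were chosen with results of these data known, and their counts support nothing beyond themselves.

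Genes of synapses and excitability had 8 proximal 5mC peaks at 6 of 62 genes and 18 of 5hmC at 15. From PP to N, 4 of the 8 were lower and 1 higher in 5mC, and 7 of the 18 were higher and 2 lower in 5hmC. Over all peaks 10.2% were lower and 5% higher in 5mC, and 22.1% higher and 7.71% lower in 5hmC. The synaptic 5hmC peaks had a median 5hmC change of +0.11 compared with +0.01 over all proximal peaks. The lower 5mC peaks were those of Syt3, Rab3a, Homer2, a postsynaptic scaffold (4.48, 3.69 and 3.41), and 1 of 2 peaks of the potassium channel gene Kcnd2 (4.47, 4.20 and 3.28). The other Kcnd2 peak, at +1532 bp, had 3.68, 4.62 and 4.21. Syt4 had 2 peaks with higher 5hmC, at +839 bp (2.47, 4.20 and 5.14) and at +1511 bp (4.07, 4.67 and 5.56), and its expression score was 236, 1461 and 10079. Syn2, a synapsin, went the other way in 5hmC (4.74, 4.42 and 3.93) with an expression score of 128, 1444 and 3584, as did Syt13 (4.81, 4.49 and 3.30), whose score was 639, 219 and 66.9. Axon and cytoskeleton genes had 3 5mC peaks, and 2 were lower from PP to N. These were Tubb3 and Cdk5r1, which encodes the activator of the kinase Cdk5, with 4.69, 4.72 and 2.82 at +1607 bp and an expression score of 1255, 6059 and 34896. Of their 10 5hmC peaks 2 were higher, Tubb3 and the tubulin gene Tubb2a (3.29, 4.20 and 4.7, at +812 bp), and 1 was lower, the neurofilament gene Nefl (4.07, 3.5 and 3.17), whose expression score was 22.9, 43.2 and 717.

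Imprinted genes and germline genes are known for promoter methylation. The 9 imprinted genes with a 5mC member had a median level of 5.86, against 5.00 over all proximal peaks, and none was lower or higher from PP to N, although Usp29 (3.89, 4.30 and 3.23) was lower from DP to N. They were Mcts2 (6.61, 6.50 and 6.20), Nespas (6.68, 6.69 and 6.45), Plagl1 (6.34, 6.57 and 6.43), the maternally expressed RNA Meg3 (6.38, 6.42 and 6.23), Impact, Zrsr1, Peg3, Mest and Usp29. Not all of them were high. The mean level over the cell types was 4.56 at Peg3 and 4.28 at Mest, and it was lower still at Usp29. These lay below the 5.00 of all proximal peaks, and the other imprinted genes lay above it. Expression differed between cell types at several of the 9 genes all the same, with scores of 2000, 5523 and 33397 for Meg3 and 35308, 17126 and 4886 for Plagl1. The 6 5hmC peaks of imprinted genes had 1 higher, Grb10 (4.29, 4.72 and 4.87), and 1 lower, Meg3 (5.38, 5.22 and 4.67). Of 53 germline genes 11 had 14 5mC peaks, of which 3 were lower and 1 higher from PP to N, where 10.2% and 5% of all 5mC peaks were. Their median level was 5.04, close to the 5.00 over all proximal peaks. Tdrd9 at +118 bp (7.59, 7.54 and 7.40), the adenine nucleotide carrier gene Slc25a31 at +96 bp (6.31, 6.66 and 6.38) and Syce1, of the synaptonemal complex, at +20 bp (5.84, 5.68 and 5.74) were nearly level, whereas the meiotic recombinase gene Dmc1 had 4.49, 4.71 and 3.18. Dppa5a (4.18, 4.31 and 3.28) and Tdrd5 (4.23, 4.48 and 3.39) were the others with lower 5mC. Of 2 Adad1 peaks 1 was higher (4.58, 5.08 and 5.18) and the other was low throughout (3.85, 3.87 and 3.76). A further Syce1 peak, at +472 bp, was also low (3.94, 4.07 and 3.54). The clustered protocadherins, cell surface proteins of neuronal identity, had 19 5mC peaks at 15 genes, and 2 were higher and none lower from PP to N. Their 7 5hmC peaks had a median change of -0.29 from PP to N and none was called in that comparison, although Pcdhb21 was lower from DP to N (-0.69). All 18 protocadherin genes with a member of either mark had their highest expression score in N, for example Pcdhb17 with 65.8, 241 and 727. Cell cycle and replication genes had only 2 members of each mark. 5mC at Cdk4 was 4.01, 3.61 and 2.90 and 5hmC at Cdc6 4.40, 4.89 and 5.16, and both were called from PP to N. Among methylation enzymes and readers, Zbtb4 had the only 5mC member, and the 5hmC peaks of Tet1 (3.89, 4.26 and 3.71) and Mbd1 (4.78, 5.19 and 4.49) were not called from PP to N.

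The X chromosome stood apart in the position of its peaks. Of its 799 5mC peaks 195 (24.4%) were promoter-proximal, whereas on autosomes it was 5.87%, with a range of 3.59% to 8.94%. At genes other than predicted genes and pseudogenes, 51.6% of the 124 proximal X-linked 5mC peaks lay within 500 bp of the TSS, against 17.1% of 2305 on autosomes. For 5hmC 13.7% of X-linked peaks were proximal, against 6.48% on autosomes, with a range of 3.58% to 11.3%, so that X was nearer to the highest autosome. The X-linked 5mC peaks included those of Morf4l2 (6.24, 6.29 and 6.29), Hdac6 (5.76, 5.73 and 5.82), the glucose-6-phosphate dehydrogenase gene G6pdx (5.53, 5.34 and 5.32), Ubl4 (5.76, 5.96 and 5.91), Otud5 (4.95, 5.06 and 5.47), Taf1 (4.55, 4.37 and 4.16) and the ubiquitin-activating enzyme gene Uba1 (3.85, 3.82 and 4.17), whose expression score was 24720, 28737 and 53478. The Hdac6 sequence above is 1 of 14 X-linked windows covered by a 5mC peak. Of the 14 windows 71.4% had an observed over expected CpG ratio of 0.6 or more, compared with 22.6% of the 53 autosomal windows so covered and with 26.0% of all X-linked and 34.3% of all autosomal windows. The sex of the embryos was not given in the sources used here.

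Levels at X-linked members were also compared between cell types. The median 5mC level of the 195 peaks was 4.83, 4.84 and 4.80, so that the lower median of autosomal members in N (5.10, 5.09 and 4.92) was not seen. After the median over all peaks had been subtracted, 20 were higher and 2 lower from DP to N, the higher ones including Tmsb4x, which encodes an actin-binding peptide (3.86, 3.96 and 4.72), Hsd17b10 (4.17, 3.41 and 4.39) and Haus7 (6.01, 5.58 and 6.19). This is 10.3% higher and 1.03% lower, against 4.99% and 8.67% of autosomal members. X-linked 5mC peaks farther than 2 kb had 9.11% of 604 higher and 3.15% lower, so that this too was not particular to promoters. Without the subtraction the direction turned, with 7 higher and 13 lower. The median 5hmC level was 4.95, 4.76 and 4.74, with 15 of 138 lower and 4 higher from PP to N, whereas 7.48% of 3009 autosomal members were lower and 21.7% higher. Here the direction was the same without the subtraction (22 lower and 3 higher). X-linked peaks farther than 2 kb had 11.4% of 871 lower and 3.1% higher from PP to N, so that the low share of gains was not particular to promoters. Fndc3c1 (4.69, 3.80 and 3.74), with an expression score of 226, 155 and 0.90, is an example of lower 5hmC from PP to N. The kinase gene Pak3 (4.74, 3.42 and 4.27), with 3654, 5420 and 6114, was lower from PP to DP and higher from DP to N, and was not called from PP to N.

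The expression of the gene was compared with the marks at its promoter. Over all members the rank correlation across peaks of the mean level with the mean expression score was -0.0045 for 5mC (3380 peaks) and 0.0006 for 5hmC (3147 peaks). Scores were not divided by transcript length. Position differed with expression. With members ranked by mean score into 5 groups of similar size, 36.8% of the 5mC members with the lowest scores and 13% of those with the highest lay within 500 bp of the TSS, and for genes other than predicted genes and pseudogenes the shares were 31.4% and 9.42%. For 5hmC they were 28.2% and 15.4%. The marks of highly expressed genes thus lay more at the edges of the window.

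Changes in expression and in the marks went together only weakly. Across members the rank correlation of both changes lay between -0.06 and -0.03 for 5mC and between 0.04 and 0.06 for 5hmC, over the 3 steps. The difference was in the counts. In the step from DP to N, 5mC was lower at 11.8% of the 515 peaks of genes with 2-fold or more higher expression, at 7.90% of the 2303 within 2-fold and at 6.23% of the 562 with 2-fold or more lower expression. Among peaks farther than 2 kb the shares were 12%, 8.83% and 8.48%. From PP to N the proximal shares were 14.6%, 8.62% and 7.50%. In the step from PP to DP they were 7.87%, 4.64% and 5.31%, and with a score of 100 or more 8.99%, 4.27% and 8.97%, so that losses of 5mC were then as frequent with lower as with higher expression. 5hmC was higher from PP to DP at 16.2% of the 296 peaks of genes with higher expression, 8.79% of 2538 within 2-fold and 6.07% of 313 with lower expression, against 13.9%, 11.2% and 9.43% of farther peaks. In the next step the shares of 5hmC were 18.3%, 16.1% and 13.5%. Where the score reached 100 in the higher cell type, 5mC was lower from DP to N at 37 of 256, 98 of 1351 and 15 of 231 peaks in the same order, and 5hmC was higher from PP to DP at 17.2%, 7.46% and 6.31%. For 5hmC from DP to N the shares then lay closer together, at 17.1%, 16.8% and 14.3%. Most promoters of genes with changed expression thus had no called change of either mark.

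**Figure D5:**
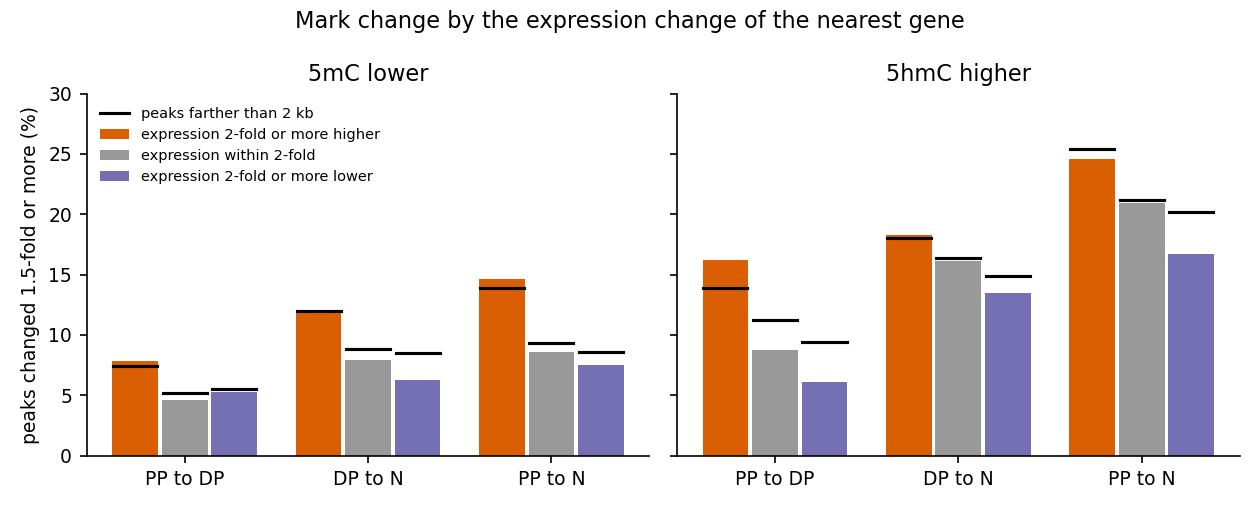
Share of promoter-proximal peaks in percent (y axis) with lower 5mC (left) or higher 5hmC (right) by 1.5-fold or more in each step (x axis), by the change of the expression score of the nearest gene, with black lines for peaks farther than 2 kb. Lower 5mC from DP to N was found at 11.8% of peaks where expression was 2-fold or more higher and at 6.23% where it was 2-fold or more lower.

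The genes with the largest differences in expression from DP to N showed the same variety. Rph3a combined a score of 14.6 in DP and 2340 in N with the loss of 5mC described above. The other genes with a 5mC member and a comparable difference were Galnt9 (4.47, 4.92 and 5.02), the melanocortin receptor gene Mc4r (4.43, 4.68 and 4.68), Ccbe1 (6.11, 6.34 and 6.03) and a gene whose symbol is listed as a date (7.55, 7.57 and 7.53), and none of them was lower from DP to N. With a 5hmC member these were Eef1a2, Sncb, Gpr12, Cntnap3 and Ccbe1. Sncb, which encodes beta-synuclein, had higher 5hmC (3.66, 3.90 and 4.64) with expression scores of 3.70, 7.70 and 944. Eef1a2, whose promoter sequence is shown above, had 5.14, 4.73 and 4.46 with 25.8, 30.6 and 3101, and was lower from PP to N. Of genes with much lower expression in N, Lfng, which encodes a glycosyltransferase of Notch receptors, had 3, 3.95 and 5.10 in 5hmC at -1324 bp with expression scores of 6078, 3165 and 31.2. Mybpc1 had 3.58, 4.41 and 5.06 at +26 bp with 78.6, 452 and 1.20. At both genes 5hmC was thus highest where the gene was least expressed. Mlc1, by contrast, had 4.78, 4.57 and 3.83 with 3922, 1287 and 13.6. In 5mC, Lamb2, which encodes a laminin chain, had 7.12, 7.13 and 7.07 at +1528 bp and 5.24, 4.75 and 5.31 at +743 bp with expression scores of 9009, 4824 and 51.9, and the phospholipase gene Plce1 had 6.49, 6.68 and 6.45 with 9727, 3631 and 36.5.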

How the data were processed

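DNA immunoprecipitated with antibodies to 5mC or 5hmC, and input DNA, was sequenced by the authors (12 samples). They aligned the reads to mm10 with BWA 0.7.8-r455, used SICER 1.1 to call peaks, of which those shared by every replicate were merged and repeats left out, computed TMM-normalized levels with DiffBind and assigned the nearest TSS with HOMER 4.7. The deposited levels are on the log2 scale and the deposited expression values are a score whose unit is not named. Both are the authors' means per cell type. The labels do not separate replicates, total depth is not given in the tables, and the precision of single values is unknown. DNA was sheared to about 250 bp, so that position is not resolved below that length. The authors' own fold changes and p-values stand in further columns and were not used.

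Peaks within 2000 bp of a TSS were taken with Python 3.11.15 and pandas 2.3.3. Repeated rows (2 per mark) were kept. Differences in log2 level were reduced by the median difference of all peaks and called at 1.5-fold. Expression change was log2((later + 1)/(earlier + 1)), called at 2-fold. Since the reference used here gives no exon lengths, scores were not divided by length. Peaks of both marks were joined at 1 bp of overlap or more, with coordinates read as deposited and taken as 1-based. The scripts were tested on simulated data. The members named are, per mark, those with the highest level, with the largest gains and losses among peaks at or above the median level and above the table's lowest level, with the largest combined difference of both marks, with the largest expression differences (score of 100 or more), and the members of the gene lists. Members and lists were chosen with earlier results of these data known. Small RNA symbols such as U1 stand for many copies, and 6 symbols had been turned into dates. Some members that this rule names are not reported here.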

Additional observations from a re-analysis of the deposited data

How the results depend on the processing

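The 6 shares of called peaks (lower 5mC and higher 5hmC in each step) were recomputed under 8 alternatives and 1 chosen after seeing the data (predicted genes and pseudogenes left out). A share was taken as unchanged within its 95% exact binomial interval, which covers counting error only. Of 54 such values 33 were within it and 21 were not. Of 15 values for the other main results (by expression, and at sites of both marks), 1 moved. The 5mC shares lower from PP to DP, DP to N and PP to N became 1.12%, 2.84% and 3.49% at a 2-fold minimum, and the 5hmC shares higher 3.65%, 6.90% and 12.1%. At levels at or above the median the 5mC shares were 1.85%, 4.21% and 4.79%, and the 5hmC share from PP to DP 4.13%. Without centring 5mC gave 13.9% from DP to N and 15.7% from PP to N, and 5hmC 18.8% from PP to N. By the distance to the RefSeq start of the same symbol 5mC from DP to N was 9.67%. Within 500 bp 5mC gave 6.84% from DP to N and 8.36% from PP to N, and 5hmC 13% and 17.2%, and within 1000 bp 5hmC gave 13.8% and 17.6%. With 1 peak per gene 5hmC from DP to N was 14.7%. The rank correlation of 5hmC level with expression was 0.0656 within 500 bp. The cause was not tested, beyond the construction of each alternative. Autosomes alone and the added alternative moved none of the main shares out of the interval, nor did a stricter overlap or the expression alternatives. Expression per kb of exon was not run, since exon lengths were not used here. No paired analysis was possible because the values are 1 mean per cell type and carry no replicate numbers.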
